A study of Sus scrofa with 18 samples.

Results

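The zinc finger genes described here are the pig genes whose deposited name is ZNF followed by 3 digits, the first of them from 2 to 6, and whose raw counts summed to at least 200 over the 18 libraries. That gave 141 members among 15240 genes. The name pattern matched 145 genes, and 4 stayed below the count floor, with 129 counts for ZNF423, 145 for ZNF391, 185 for ZNF404 and 199 for ZNF366. Just above the floor lay ZNF365 with 216 counts and ZNF649 with 279. Another 81 genes carry a ZNF name outside that pattern and serve below as the nearest set for comparison. The members were chosen by name and by that floor on summed counts, and differences between the labels were not part of the rule.

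ZNF names are given to proteins built around zinc fingers, mostly of the C2H2 kind, in which a short loop of the protein is held by a zinc ion and reads DNA. Many of them carry a KRAB domain that recruits TRIM28, which in turn brings the histone methyltransferase SETDB1 and HP1 proteins and so silences transposable elements and other DNA. KRAB zinc finger genes lie in tandem clusters in mammals, and neighbouring copies are similar in sequence. Other ZNF proteins have no KRAB domain and act as transcription factors, as parts of chromatin complexes, or outside transcription, for instance on ribosomes.

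The cells were porcine primary kidney endothelial cells according to the labels, a purchased culture that the submitters froze at passage 5. The label cell-cell interaction is carried by 5 libraries and, per the series' design text, stands for transfected cells, overexpressing ST8Sia6 or carrying GFP, that were collected from co-culture with peripheral blood mononuclear cells of 4 individuals. The label does not say which plasmid each of those 5 libraries had, and the species of the blood cells is not given in the sources used here. The label for cells given the ST8Sia6 plasmid is carried by 5 libraries, collected 24 hours after transfection with Lipofectamine LTX. GFP control is carried by 5 libraries, transfected in the same way and also collected at 24 hours. A label that names a negative control of KEC plus all cells is carried by 1 library, and wild type by 2 libraries. ST8Sia6 is a sialyltransferase that adds sialic acid to existing sialic acid on glycans. The labels name no animals and do not say that libraries of a label came from separate cultures, so the p-values below measure the spread between these libraries only, which may be technical.

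Several libraries did not follow their labels. Counts of the pig ST8SIA6 gene did not separate the labels: it lay between 0 and 2.84 CPM (counts scaled to library size, with TMM factors) in the ST8Sia6 plasmid libraries, between 0 and 28.2 CPM in the cell-cell interaction libraries, and between 0 and 0.971 CPM in the GFP control libraries. The 28.2 CPM was in cell-cell interaction 2, and the other cell-cell interaction libraries had 0 to 1.33 CPM. The species of the plasmid's insert is not given in the sources used here. Mitochondrially encoded genes took 13.8% to 25.4% of the counts in cell-cell interaction 1 to 4 and in ST8Sia6 plasmid 4 and 5, and 1.22% to 4.32% in the other 12 libraries, cell-cell interaction 5 among them with 3.32%. When the authors' deposited fold changes were regressed on the libraries' log2 CPM, ST8Sia6 plasmid 4 and 5 carried weight on the side the authors call interaction with GFP cells, GFP control 5 on the ST8Sia6 plasmid side and wild type 1 on the side of interaction with ST8Sia6 cells. Cell-cell interaction 1 and 2 lay on the GFP side and 3, 4 and 5 on the ST8Sia6 side. Groups below follow the labels, and results are given also without those 4 libraries. The levels of measured markers went against an endothelial culture. The 8 measured endothelial markers of 12 summed to 7.59 to 24.7 CPM over all libraries. The 8 measured epithelial markers of 10 summed to 1020 to 2551 CPM, led by KRT8, with values by label given below. Markers were looked up by name, and 3248 of the 15240 genes carry no name. The endothelial CDH5, VWF, KDR and TEK and the epithelial KRT19 and PAX8 were not found by name, which does not show that they were absent. Total counts ranged from 14867035 to 33301008 per library.

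All 141 genes had counts in every one of the 18 libraries. Their median level was 2.73 CPM per kilobase of deposited gene length, against 2.30 CPM per kilobase for the other ZNF genes and 4.59 CPM per kilobase over all genes, which puts the median member at the 39.5th percentile of all genes. Levels ran from 0.124 CPM per kilobase for ZNF649 to 40.2 for ZNF664. Below 1 CPM per kilobase were 28 members, and above 10 were 14. The members were thus mostly weakly expressed, with a few well-expressed genes at the top. Over the 18 libraries, the ratio of a member's highest to its lowest CPM had a median of 2.18, against 2.09 for the other ZNF genes and 2.68 over the 14305 genes of the table with counts in every library. The deposited gene models of the members had a median of 7 exon blocks, against 10 over all genes, and their longest exon was 59.97% of the gene's length at the median, against 50.4%.

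The 6 members with the highest level per kilobase were ZNF664, ZNF207, ZNF598, ZNF281, ZNF276 and ZNF384, at 40.2, 24.5, 24.0, 20.5, 18.1 and 16.7 CPM per kilobase. ZNF207 (BuGZ) binds spindle microtubules and kinetochores, ZNF598 is a ubiquitin ligase that marks collided ribosomes, ZNF281 is a regulator studied in pluripotent cells, and ZNF384 is a transcription factor also known as CIZ. ZNF664 had 145, 145, 131, 135 and 196 CPM in cell-cell interaction 1 to 5, 195, 198, 211, 164 and 152 CPM in ST8Sia6 plasmid 1 to 5, and 206, 184, 240, 233 and 196 CPM in GFP control 1 to 5. The first 4 cell-cell interaction libraries were below every GFP control library, and the fifth was equal to the fifth GFP control library at this precision. ZNF207 had 182, 203, 180, 189 and 197 CPM in cell-cell interaction 1 to 5, and 224, 222, 149, 135 and 225 CPM in GFP control 1 to 5. The interaction libraries lay close together, between a low pair and a high trio of control libraries, and ZNF207 did not pass (log2 fold change 0.02 ± 0.16 SE).

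As a share of all counts outside the mitochondrial genome, the 141 genes took 0.407%, 0.435%, 0.412%, 0.403% and 0.331% in cell-cell interaction 1 to 5, 0.322%, 0.318%, 0.323%, 0.366% and 0.392% in ST8Sia6 plasmid 1 to 5, and 0.312%, 0.336%, 0.297%, 0.295% and 0.326% in GFP control 1 to 5. KEC plus all cells had 0.340%, and wild type had 0.330% and 0.340%. The 6 libraries rich in mitochondrial counts therefore had the 6 highest shares, whichever label they carried. Of all counts, mitochondrial ones included, the share lay between 0.291% and 0.375% in the 18 libraries. In bulk RNA, fewer cells of a type and less RNA per cell cannot be told apart.

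**Figure D1:**
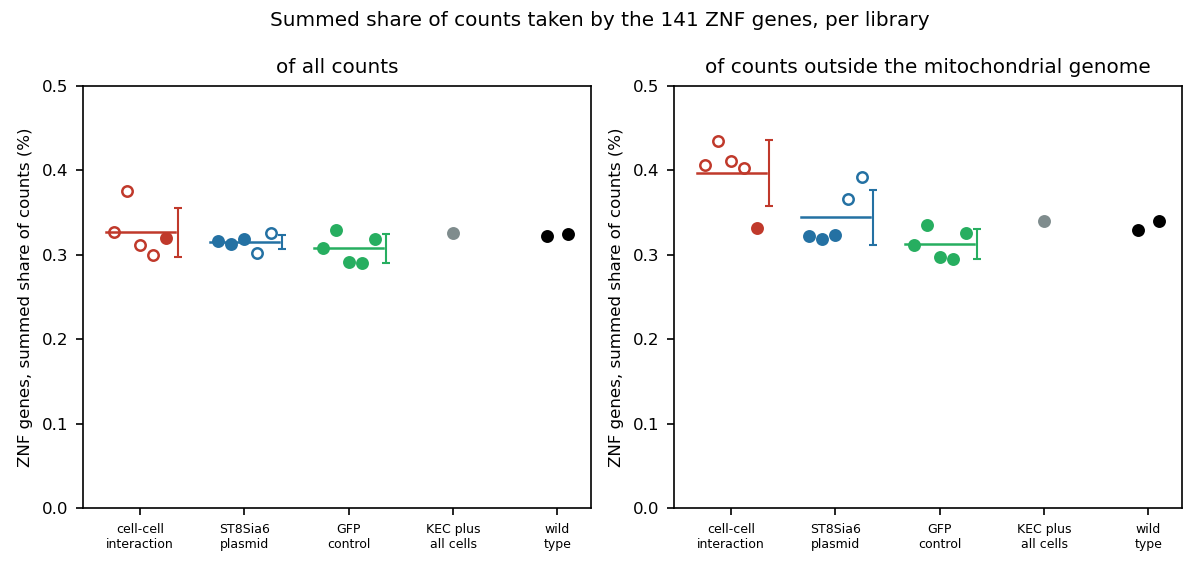
Summed share of counts (%, vertical axis) taken by the 141 ZNF genes in each library, of all counts (left) and of counts outside the mitochondrial genome (right), by label; open circles are libraries with over 10% mitochondrial counts, lines are means and bars the SD of labels with 5 libraries. On the right, the open circles lie between 0.366% and 0.435%, above every filled circle.

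In cells labelled cell-cell interaction, against GFP control cells, 34 of the 140 tested ZNF genes were higher, 14 were lower and 92 did not pass (edgeR quasi-likelihood test, Benjamini-Hochberg adjusted p, here FDR, under 0.05). Over all 13951 genes tested, 39.5% passed, 20.8% higher and 18.7% lower, against 24.3% and 10.0% of the members. The members' median log2 fold change was 0.12, against -0.02 over all genes. Of the 81 other ZNF genes, 11 were higher and 9 lower, with a median of 0.04. The changes were moderate: the median log2 fold change was 0.70 among the 34 risen members and -0.65 among the 14 fallen ones, against 1.08 and -0.72 among all genes that passed in each direction. In 35 members the libraries of the 2 labels did not overlap, 24 higher and 11 lower, which is 25.0% of those tested, against 24.6% of all genes.

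The split between rises and falls depended on scaling: with library totals alone, which moved the median of all genes to -0.17, 21 members were higher and 21 lower (40.8% of all genes passed), and the members' median was -0.02. Without GFP control 5, the one doubted library in this comparison, 31 were higher and 16 lower (33.6% of those tested, against 39.1% of all genes), with a median of 0.05. Without cell-cell interaction 5 there were 37 and 25 (44.3%, against 50.5% of all genes). Among libraries with under 10% mitochondrial counts, 1 interaction library remains, and none of 141 tested members passed, with 140 genes (0.948%) passing over the whole table.

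**Figure D2:**
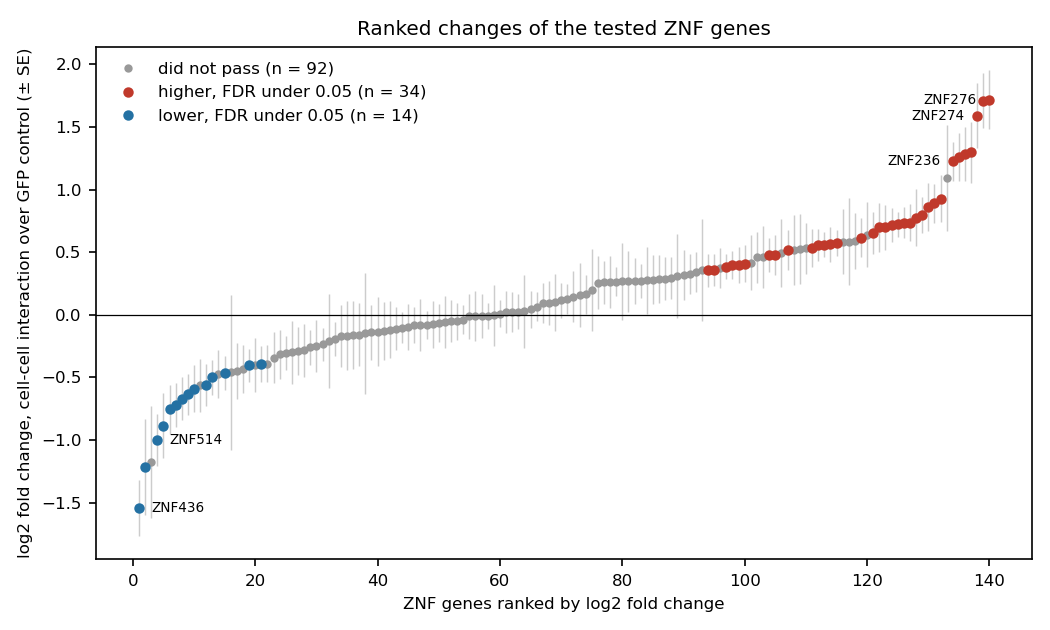
Log2 fold change of cell-cell interaction over GFP control (vertical axis, bars are SE) of the 140 tested ZNF genes, ranked from the largest fall to the largest rise (horizontal axis), by whether they passed. Of the 48 genes that passed, 7 lie above 1, ZNF276 and ZNF274 among them, and 2 below -1, ZNF436 among them.

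The largest rises among members that passed and whose libraries did not overlap were in ZNF276, ZNF335, ZNF274, ZNF696, ZNF316 and ZNF236. ZNF276 (ENSSSCG00000029228.3, susScr11 chromosome 6, 298036 to 313366) had 184, 152, 148, 128 and 72.1 CPM in cell-cell interaction 1 to 5, and 30.6, 49.4, 47.6, 46.4 and 38.7 CPM in GFP control 1 to 5. The first 4 interaction libraries stood far above the control range, and the fifth stood just above it. ZNF276 averaged 137 ± 41.5 CPM against 42.5 ± 7.85 CPM (SD, n = 5 each), a log2 fold change of 1.72 ± 0.23 SE (edgeR FDR 0.000598). Exons of ZNF276 share 702 bases with the Fanconi anaemia gene FANCA on the opposite strand, 16.5% of its length, and FANCA averaged 99.1 ± 41.7 CPM against 26.8 ± 11.5 CPM (SD, n = 5 each; log2 fold change 1.91 ± 0.39 SE, edgeR FDR 0.00367). The handling of strand is not given in the sources used here, so reads of the 2 genes may be shared between them.

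ZNF335 (ENSSSCG00000007432.4, chromosome 17, 48126896 to 48153181), a component of a histone methyltransferase complex required in neural progenitors, had 198, 177, 169, 146 and 80.1 CPM in cell-cell interaction 1 to 5, and 41.1, 56.7, 45.7, 43.9 and 53.0 CPM in GFP control 1 to 5. The interaction libraries again split into 4 high ones and a lower one, cell-cell interaction 5, all above the controls. The log2 fold change was 1.71 ± 0.22 SE (edgeR FDR 0.000463). It shares 2337 exon bases, 39.8% of its length, with PCIF1 on the opposite strand. PCIF1 did not pass (log2 fold change -0.26 ± 0.13 SE).

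ZNF274 (ENSSSCG00000003998.3, chromosome 6, 62833620 to 62859088) is a KRAB protein that in human cells brings SETDB1 to zinc finger genes themselves. It had 24.6, 18.7, 18.2, 13.4 and 9.38 CPM in cell-cell interaction 1 to 5, and 4.75, 4.96, 6.79, 7.52 and 4.52 CPM in GFP control 1 to 5. No library overlapped between the labels. Its log2 fold change was 1.59 ± 0.26 SE (edgeR FDR 0.00142), and its exons overlapped no other gene of the tables.

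The other 3 were ZNF696, which averaged 21.5 ± 4.73 CPM against 9.02 ± 2.36 CPM, ZNF316, with 34.5 ± 9.0 CPM against 14.7 ± 0.924 CPM, and ZNF236, with 66.7 ± 14.0 CPM against 29.1 ± 2.90 CPM (interaction against GFP control, SD, n = 5 each). Their log2 fold changes were 1.28, 1.26 and 1.23. Without GFP control 5, the log2 fold changes of all 6 genes were between 1.18 and 1.72 and all 6 passed. In cell-cell interaction 5 alone, set against the GFP controls, they were between 0.33 and 0.82 and none passed.

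The largest falls among members that passed and whose libraries did not overlap were in ZNF436, ZNF599, ZNF514, ZNF689, ZNF398 and ZNF277. ZNF436 (ENSSSCG00000035332.2, chromosome 6, 81250625 to 81262352) had 11.4, 13.1, 15.1, 17.8 and 28.7 CPM in cell-cell interaction 1 to 5, 56.2, 30.5, 29.9, 15.9 and 15.3 CPM in ST8Sia6 plasmid 1 to 5, and 52.9, 43.7, 52.1, 51.5 and 56.1 CPM in GFP control 1 to 5. Every interaction library was below every GFP control library, and the ST8Sia6 plasmid libraries spread over both ranges. ZNF436 averaged 17.2 ± 6.87 CPM against 51.3 ± 4.60 CPM (SD, n = 5 each), a log2 fold change of -1.54 ± 0.22 SE (edgeR FDR 0.000781).

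ZNF599 was weakly expressed, at 0.847 ± 0.245 CPM against 2.03 ± 1.06 CPM (SD, n = 5 each; log2 fold change -1.21 ± 0.38 SE, edgeR FDR 0.0275), did not pass with limma-voom (FDR 0.0602), and shares exon bases with 2 unnamed genes. Its labels were barely apart, with 1.11216 CPM in cell-cell interaction 5 and 1.1148 CPM in GFP control 2. GFP control 3 and 4 had 3.41 and 2.92 CPM, and GFP control 1, 2 and 5 had 1.11 to 1.44 CPM. ZNF514 had 6.70, 5.52, 5.94, 7.21 and 6.34 CPM in cell-cell interaction 1 to 5, and 8.96, 11.5, 18.5, 15.8 and 10.0 CPM in GFP control 1 to 5. Its interaction libraries were nearly level, and GFP control 3 and 4 were the highest of the controls. The log2 fold change was -0.998 ± 0.21 SE (edgeR FDR 0.00431). ZNF689, ZNF398 and ZNF277 fell by 0.75, 0.72 and 0.67 on the log2 scale. GFP control 3 and 4 were also the 2 highest of all libraries for ZNF689, at 30.6 and 37.0 CPM against 18.4 to 21.0 CPM in the other GFP controls.

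**Figure D3:**
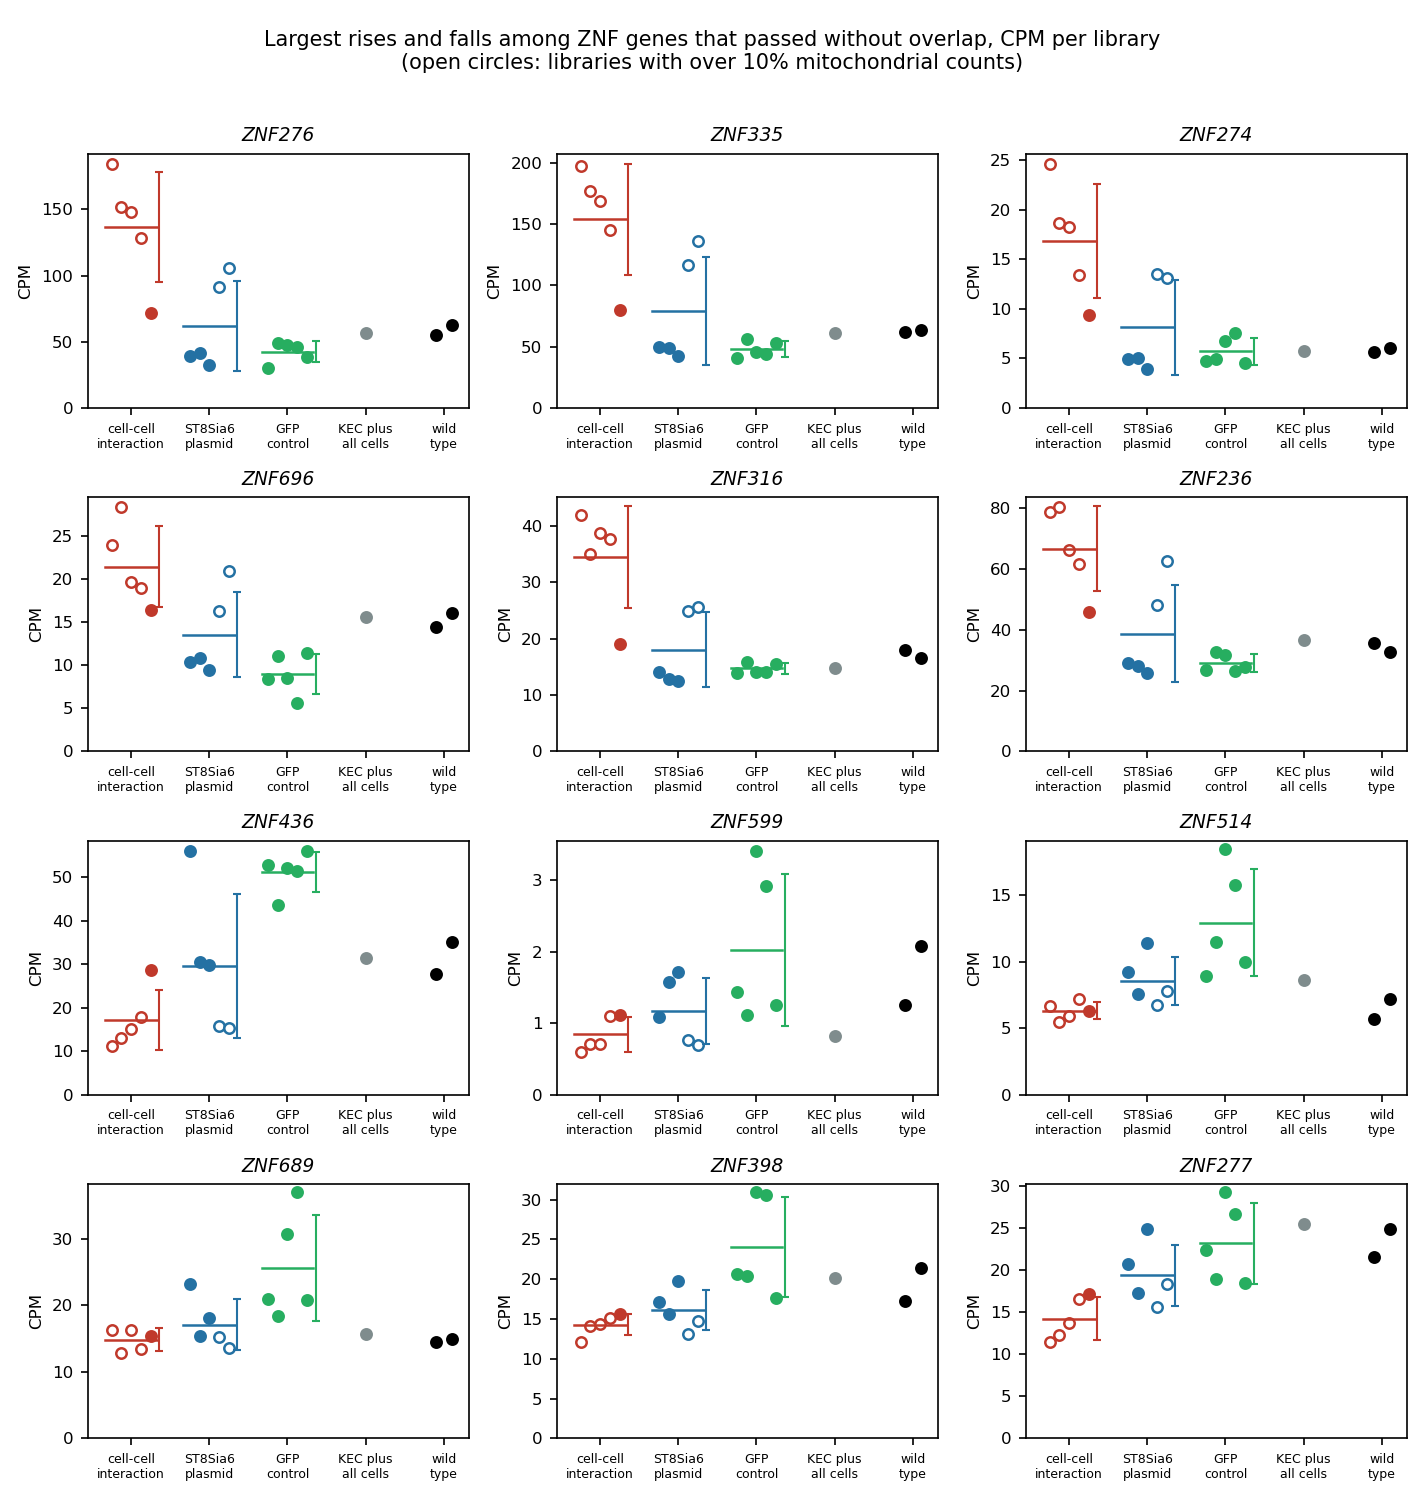
CPM per library (vertical axis) of the 6 largest rises and 6 largest falls between cell-cell interaction and GFP control among ZNF genes that passed and did not overlap between the 2 labels; open circles are libraries with over 10% mitochondrial counts, lines are means and bars the SD of labels with 5 libraries. In ZNF276, ZNF335 and ZNF274 the open circles of ST8Sia6 plasmid 4 and 5 lie near the cell-cell interaction libraries and above ST8Sia6 plasmid 1 to 3.

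The mitochondrial share moved with these changes. Among the 34 risen members, ST8Sia6 plasmid 4 and 5, which are rich in mitochondrial counts, were both above ST8Sia6 plasmid 1 to 3 in 28 (82.4%), against 81.4% of all risen genes, and cell-cell interaction 5 was below cell-cell interaction 1 to 4 in 18 (52.9%), against 64.2% of all risen genes. Among the 14 fallen members, ST8Sia6 plasmid 4 and 5 were both below 1 to 3 in 11 (78.6%), against 74.9% of all fallen genes, and cell-cell interaction 5 was above 1 to 4 in 10 (71.4%), against 58.8%. Cell-cell interaction 5 lay on the interaction side of the GFP control mean in 33 of the 34 risen members (97.1%, against 91.8% of all risen genes) and all 14 fallen ones (against 96.7% of all fallen genes), though it was itself among the libraries that made the calls. ST8Sia6 plasmid 4 and 5 are also the libraries with weight on the authors' side of interaction with GFP cells. Their mitochondrial share and a label that differs from their treatment cannot be told apart here. The part of RNA quality or of library labels in these changes was not tested. The 12 measured leukocyte markers of 19 summed to 31.5 to 67.3 CPM in cell-cell interaction, 28.8 to 62.4 CPM in ST8Sia6 plasmid and 30.9 to 105 CPM in GFP control libraries, ranges that overlap. The pan-leukocyte gene PTPRC lay between 0 and 2.19 CPM, 0 and 0.485 CPM, and 0 and 8.06 CPM in the same 3 labels. CD3E, CD3D, CD2 and MS4A1 were not found by name, which does not show that they were absent. Of the 7 leukocyte markers that could be tested, CD79A was higher (log2 fold change 1.10, edgeR FDR 0.0031) and NKG7 lower (-4.39, edgeR FDR 0.0012). CD79A averaged 13.2 CPM in cell-cell interaction, 6.28 CPM in GFP control and 8.33 CPM in wild type. NKG7 was very low, averaging 0.0365 CPM in cell-cell interaction, 0.980 CPM in GFP control and 0.0161 CPM in wild type. The 8 measured epithelial markers summed to 1020 to 1621 CPM in cell-cell interaction and 1728 to 2551 CPM in GFP control libraries, ranges that do not overlap, with 6 lower and 1 higher. The adhesion genes EPCAM, CDH16 and CDH1 were lower, with log2 fold changes of -4.06, -3.87 and -2.69 (edgeR FDR 0.00058, 0.000131 and 0.000277), and PAX2 was higher, at 0.58 (edgeR FDR 0.00505). EPCAM, CDH16 and CDH1 averaged 10.1, 12.8 and 366 CPM in GFP control. In cell-cell interaction they averaged 0.588, 0.852 and 55.6 CPM, and in wild type 0.481, 3.15 and 103 CPM. Against wild type, GFP control was higher in EPCAM and CDH1 (log2 fold change 4.36 and 1.81, edgeR FDR 0.0447 and 0.0353). CDH16 did not pass there (2.01, edgeR FDR 0.192). In cell-cell interaction against GFP control, of 3 endothelial markers that could be tested, PECAM1 and ESAM were higher (0.91 and 1.01) and EGFL7 lower (-1.38 on the log2 scale). The part of blood cells or of other cell types in the ZNF changes was not tested.

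Among the members listed for a known role, 31 of 32 could be tested: 13 were higher (41.9%, against 20.8% of all genes), 3 lower (9.68%, against 18.7%) and 15 did not pass. Of all tested members, 24.3% were higher and 10.0% lower. The role list was drawn up with earlier results of these data known, and its shares were not tested. Several of the 13 calls depended on scaling, as given below. ZNF335 and ZNF274, described above, are 2 of the 13. Some of the others act on ribosomes or RNA. ZNF598 had 182, 143, 146, 117 and 62.0 CPM in cell-cell interaction 1 to 5, and 50.1, 53.2, 47.9, 52.9 and 66.3 CPM in GFP control 1 to 5. The fifth library of each label crossed the other's range, and the log2 fold change was 1.30 ± 0.24 SE (edgeR FDR 0.00249). Among libraries under 10% mitochondrial, which leave cell-cell interaction 5 alone for its label, the log2 fold change of ZNF598 was 0.15. ZNF622, which acts in maturation of the large ribosomal subunit, averaged 24.2 ± 3.84 CPM against 14.2 ± 1.27 CPM (SD, n = 5 each; log2 fold change 0.80 ± 0.14 SE, edgeR FDR 0.00189). ZNF326, part of a complex that links RNA polymerase II to splicing, and ZNF346, which binds double-stranded RNA, did not pass, with log2 fold changes of 0.33 ± 0.16 and -0.10 ± 0.18 (SE).

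ZNF592, a partner of ZMYND8 together with ZNF687 and ZNF532, averaged 92.1 ± 15.7 CPM against 63.7 ± 7.09 CPM (SD, n = 5 each; log2 fold change 0.56 ± 0.14 SE, edgeR FDR 0.00922). ZNF687 and ZNF532 had log2 fold changes of 0.29 ± 0.17 and 0.27 ± 0.11 (SE) and did not pass. ZNF644, which with WIZ brings the histone methyltransferases EHMT1 and EHMT2 to chromatin, had a log2 fold change of 0.36 ± 0.13 SE (edgeR FDR 0.0465) and did not pass without GFP control 5 (FDR 0.124). Those that did not pass also included ZNF217, which binds the CoREST and CtBP repressors (-0.32 ± 0.20), ZNF410, the activator of CHD4 (-0.08 ± 0.11), ZNF445, which protects imprints (-0.19 ± 0.14), ZNF451, a SUMO ligase (0.35 ± 0.16), ZNF609, a partner of the cohesin loader (-0.24 ± 0.13), and ZNF638, which silences unintegrated viral DNA together with the HUSH complex (0.16 ± 0.16; log2 fold change ± SE each).

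The other role-list members that were higher are ZNF408, ZNF462, ZNF341, ZNF521, ZNF516, ZNF281 and ZNF384. ZNF408, mutated in human retinal vessel disease, had 32.3, 34.9, 32.3, 28.5 and 31.1 CPM in cell-cell interaction 1 to 5, and 18.2, 20.2, 21.2, 20.6 and 18.2 CPM in GFP control 1 to 5. Here the fifth interaction library was level with the others, and the labels were well apart (log2 fold change 0.72 ± 0.10 SE, edgeR FDR 0.000682). ZNF462, mutated in a human developmental disorder, had a log2 fold change of 0.74 ± 0.12, ZNF341, an activator of STAT3 transcription, 0.70 ± 0.19, ZNF521, a regulator of blood and neural progenitors, 0.55 ± 0.13, ZNF516, an activator of UCP1 in brown fat, 0.48 ± 0.16, ZNF281 0.40 ± 0.14 and ZNF384 0.39 ± 0.10 (SE each). With library totals alone ZNF281, ZNF384, ZNF516, ZNF521, ZNF592 and ZNF644 did not pass (FDR 0.291, 0.191, 0.0633, 0.0509, 0.0839 and 0.322). ZNF281 and ZNF644 also missed the threshold with limma-voom (FDR 0.0518 and 0.0504), and ZNF281 missed it without GFP control 5 (FDR 0.107). The 3 lower ones were ZNF652, a repressor that works with CBFA2T3 (-0.88 ± 0.26), ZNF277 (-0.67 ± 0.17) and the nucleolar protein ZNF330 (-0.56 ± 0.17; log2 fold change ± SE each). The other 5 tested genes, ZNF318, ZNF367, ZNF395, ZNF503 and ZNF512, did not pass, with log2 fold changes of -0.08, 0.35, -0.47, -0.05 and 0.28. ZNF365 was too low to be tested, at 0.237 ± 0.0919 CPM against 0.314 ± 0.11 CPM (SD, n = 5 each).

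Of 40 genes of the KRAB silencing pathway, 37 were measured, and in cell-cell interaction against GFP control 5 were higher, 4 lower and 28 did not pass, a share of 24.3% against 39.5% of all genes. The core pair did not pass: TRIM28 averaged 283 ± 33.2 CPM against 236 ± 43.4 CPM and SETDB1 averaged 43.0 ± 6.30 CPM against 40.1 ± 11.6 CPM (SD, n = 5 each). Of the HUSH complex and its relatives, TASOR2 averaged 189 ± 24.8 CPM against 109 ± 12.5 CPM (log2 fold change 0.82 ± 0.13 SE, edgeR FDR 0.00103) and MPHOSPH8 63.8 ± 3.87 CPM against 44.1 ± 3.74 CPM (0.56 ± 0.10 SE, edgeR FDR 0.00163). The methyltransferase EHMT1 (0.74 ± 0.15) and the NuRD subunit MTA1 (0.69 ± 0.17) were also higher over all 5 libraries. However, cell-cell interaction 5 had 97.2 CPM for EHMT1, inside the GFP control range of 77.7 to 99.3 CPM. For MTA1 it had 118 CPM, inside the GFP control range of 91.5 to 130 CPM. With libraries under 10% mitochondrial, which leave cell-cell interaction 5 alone for its label, their log2 fold changes were 0.09 and 0.04. In cell-cell interaction 1 to 4, rich in mitochondrial counts, EHMT1 had 143 to 166 CPM and MTA1 had 175 to 197 CPM. The deacetylase complex members HDAC2 (-0.52 ± 0.12) and RBBP7 (-0.34 ± 0.08) were lower (log2 fold change ± SE each). With libraries under 10% mitochondrial, the log2 fold changes were 0.65 for TASOR2, 0.34 for MPHOSPH8, -0.38 for HDAC2 and -0.48 for RBBP7. PPHLN1, also of the HUSH complex, was lower, at -0.35 ± 0.09, whereas TASOR, its central subunit, did not pass, at 0.04 ± 0.10 (log2 fold change ± SE each). The remaining calls were the DNA methyltransferase DNMT3B, higher at 0.56, and the SETDB1 cofactor ATF7IP2, lower at -0.99 on the log2 scale.

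Chromosome 6 holds 53 of the 141 members (37.6%), against 10.8% of all genes. Their median level was 1.32 CPM per kilobase, against 4.27 CPM per kilobase for the 88 members on other chromosomes. In cell-cell interaction against GFP control, 8 of the 53 were higher and 7 lower, with a median log2 fold change of 0.02. Of the 87 tested members elsewhere, 26 were higher and 7 lower, with a median of 0.27. Over all 1515 tested genes of chromosome 6, 334 were higher and 248 lower, with a median of 0.06. Over all 13951 tested genes of every chromosome, 2899 were higher (20.8%) and 2611 lower (18.7%). The difference between the chromosomes was not tested.

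With neighbours under 250000 bases apart joined, 79 members had another zinc finger gene as a neighbour, and 7 clusters held at least 4 members. The largest, on chromosome 6 from 45520895 to 46470075, held 10 members (ZNF565, ZNF567, ZNF529, ZNF382, ZNF260, ZNF566, ZNF383, ZNF527, ZNF569 and ZNF570), of which none was higher and 1 lower (ZNF570), with a median log2 fold change of -0.01 and a range from -0.45 to 0.58. The cluster from 62695611 to 63055808 held ZNF606, ZNF329, ZNF274, ZNF544, ZNF584 and ZNF446, with a median of 0.30, and ZNF274 was the member that passed. The cluster from 58102141 to 58419435, with ZNF614, ZNF613, ZNF649 and ZNF577, had a median of -0.36, and 1 member, ZNF614, was lower. Exons of 34 members share bases with another gene of the tables, 20 of them on the opposite strand and 18 on the same one, and they include 7 of the 34 risen and 3 of the 14 fallen members. Among the genes of known role, ZNF512 shares 50.2% of its length with GPN1, ZNF335 39.8% with PCIF1 and ZNF410 19.4% with COQ6. ZNF410 also shares 14.2% with PTGR2 and 5.92% with ENTPD5. In cell-cell interaction against GFP control, PTGR2 and ENTPD5 were lower (log2 fold change -1.23 and -0.89, edgeR FDR 0.00309 and 0.0348). COQ6 did not pass. The levels of ZNF512, ZNF335 and ZNF410 are therefore uncertain. Clustered copies can share reads, and the treatment of reads with several matches is not given in the sources used here, so levels within clusters are uncertain.

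**Figure D4:**
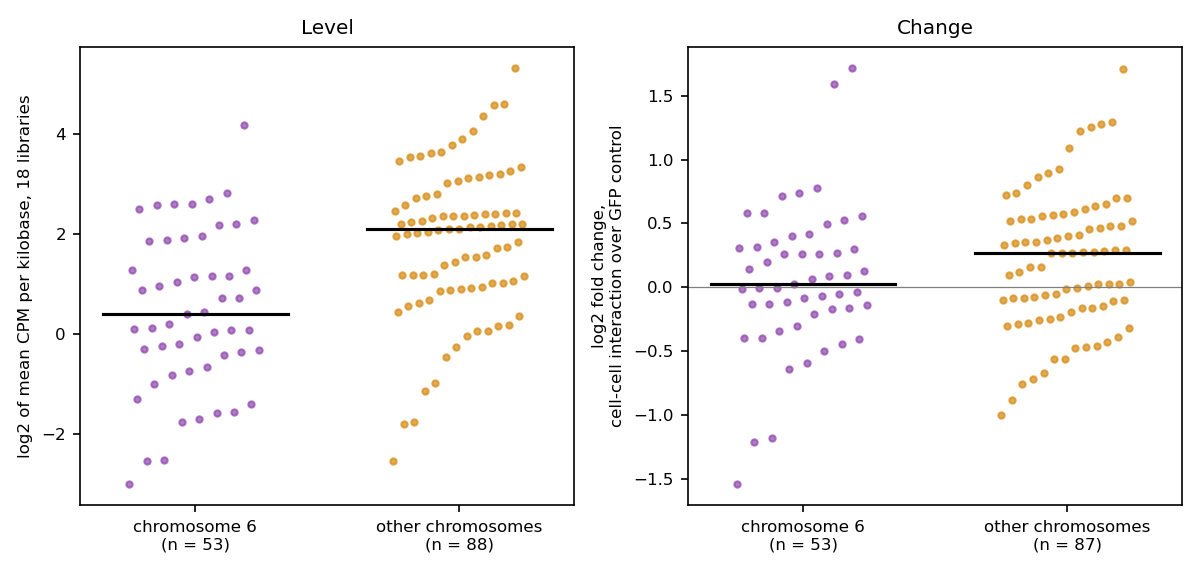
Mean level (left, CPM per kilobase, log axis) and log2 fold change of cell-cell interaction over GFP control (right) of the ZNF genes on chromosome 6 and on other chromosomes; each point is a gene and lines are medians. The medians were 1.32 against 4.27 CPM per kilobase and 0.02 against 0.27 on the log2 scale.

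In ST8Sia6 plasmid cells against GFP control cells, none of 140 tested members passed, and none of 13840 genes did (0% of all genes; lowest edgeR FDR 0.502). At an unadjusted p under 0.05 there were 15 members (10.7%), against 9.88% of all genes, and DESeq2 and limma-voom also called no member (0.0795% and 0% of all genes). The members' median log2 fold change was 0.00, with 70 positive and 70 negative values. The lowest p was in ZNF219, with 22.5, 25.6, 25.2, 35.6 and 29.3 CPM in ST8Sia6 plasmid 1 to 5 and 21.1, 19.2, 20.8, 21.1 and 21.7 CPM in GFP control 1 to 5. ZNF219 was the 1 member whose libraries did not overlap (0.714% of those tested, against 1.03% of all genes), and its 2 highest values were in the libraries rich in mitochondrial counts. ZNF622 and ZNF521 were next among positive values (0.40 ± 0.15 and 0.31 ± 0.13), and ZNF398, ZNF689 and ZNF514 had the lowest p among negative ones (-0.55 ± 0.18, -0.55 ± 0.21 and -0.56 ± 0.22; log2 fold change ± SE each, none passing). Without the 3 doubted libraries no member and no gene passed either.

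In cell-cell interaction against ST8Sia6 plasmid cells, none of 139 tested members passed with edgeR, where 0.159% of 13849 genes did, 0.13% higher and 0.0289% lower. At an unadjusted p under 0.05 there were 42 members (30.2%), against 32.6% of all genes. DESeq2 called 25 members, 23 of them higher (17.99% of those tested, against 19.5% of all genes), and limma-voom called 4, all higher (2.88%, against 2.08% of all genes). The median log2 fold change was 0.16, against -0.00 over all genes, and 9 members did not overlap (6.47%, against 8.65% of all genes). ZNF473, which acts in processing histone messenger RNA, had 23.0, 29.8, 25.0, 24.7 and 24.3 CPM in cell-cell interaction 1 to 5 and 13.0, 14.3, 14.4, 15.6 and 19.9 CPM in ST8Sia6 plasmid 1 to 5. All 5 interaction libraries were above all 5 plasmid libraries (log2 fold change 0.75 ± 0.13 SE, edgeR FDR 0.0531). ZNF516 and ZNF408 followed, at 0.66 and 0.65, and ZNF395, a factor studied in hypoxia, had the lowest p among negative values, at -0.73 ± 0.16 SE (edgeR FDR 0.0582), then ZNF507 at -0.36 and ZNF277 at -0.41. These counts turned on a few libraries. Without ST8Sia6 plasmid 5, 22 members passed (15.7%, against 20.1% of all genes). Without cell-cell interaction 5, 31 passed (22.1%, against 23.7% of all genes). Without the 2 doubted plasmid libraries, 37 passed, 31 higher and 6 lower (26.4%, against 35.5% of all genes). GFP control and ST8Sia6 plasmid cells are each compared with the same interaction libraries, so these 2 comparisons are not independent.

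In GFP control against wild type cells, none of 141 members passed with edgeR, where 3.16% of 14496 genes did, 1.19% higher and 1.97% lower. Of the members, 23 (16.3%) had an unadjusted p under 0.05, against 19.3% of all genes. DESeq2 called 5 members, 2 higher and 3 lower (3.55%, against 9.73% of all genes), and limma-voom none (2.37% of all genes). Most members were on the lower side, with 93 of 141 log2 fold changes negative and a median of -0.16, against 0.02 over all genes. The libraries did not overlap in 48 members (34.0%), 41 of them lower and 7 higher, against 25.6% of all genes in either direction. Of the 14496 genes, 1874 were lower and 1838 higher without overlap. Wild type has only 2 libraries, and wild type 1 is a doubted one. ZNF638 had 52.0, 56.7, 49.5, 42.8 and 57.5 CPM in GFP control 1 to 5 and 76.4 and 74.3 CPM in wild type 1 and 2. The 2 wild type libraries were close together and above all controls (log2 fold change -0.54 ± 0.15 SE, edgeR FDR 0.113). ZNF644 (-0.49 ± 0.14) and ZNF473 (-0.77 ± 0.22) had the next lowest p on that side. On the higher side these were ZNF436 (0.70 ± 0.17, edgeR FDR 0.0654), ZNF514 (0.99 ± 0.31) and ZNF618 (1.16 ± 0.41; log2 fold change ± SE each). ZNF436 and ZNF514 had 31.5 ± 5.31 and 6.47 ± 1.04 CPM in wild type cells (SD, n = 2), and the interaction libraries, at 5.52 to 7.21 CPM, lay around the 5.73 and 7.21 CPM of ZNF514 in wild type 1 and 2. The GFP control libraries are shared with the comparison against cell-cell interaction. In the KRAB silencing pathway 1 of 37 passed, ATF7IP2, a SETDB1 cofactor, at 7.84 ± 1.95 CPM in GFP control (SD, n = 5) and 2.36 ± 0.0806 CPM in wild type (SD, n = 2; log2 fold change 1.73 ± 0.29 SE, edgeR FDR 0.0223).

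The single KEC plus all cells library has no replicate and no test. It was close to wild type 2: the median absolute difference of the members on log2(CPM + 0.5) was 0.08 from wild type 2 and 0.17 from wild type 1, and the 2 wild type libraries differed by 0.18. In 3 members it was over 1.5-fold from wild type 2, in 10 over 1.5-fold from wild type 1, and in 63 it lay inside the wild type range.

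The authors' deposited tables give 4 comparisons of their own, whose names split the interaction by plasmid. In those tables a positive log2 fold change means higher in the group named first. By the regression weights above, the side called interaction with GFP cells also held ST8Sia6 plasmid 4 and 5. The side called interaction with ST8Sia6 cells also held wild type 1, and the ST8Sia6 plasmid side also held GFP control 5. Co-culture in these comparisons therefore follows the authors' names and not the labels. In the authors' deposited table of GFP control against interaction with GFP cells, 34 members were negative, that is higher in co-culture, and 29 were positive, at the authors' FDR under 0.05, where 24.3% of all genes were negative and 25.3% positive. In the authors' deposited table of ST8Sia6 plasmid against interaction with ST8Sia6 cells, 27 members were negative and 2 positive, where 14.7% and 10.5% of all genes were. Members higher in co-culture in both numbered 17, which is 50% of the GFP list and 63.0% of the ST8Sia6 list, against 38.5% and 63.7% over all genes. They include ZNF276 (-1.62 and -1.41), ZNF335 (-1.74 and -1.23) and ZNF274 (-1.54 and -1.33; the authors' deposited log2 fold changes in the GFP and the ST8Sia6 comparison). The 2 members that were lower in co-culture in both were ZNF436 (1.84 and 0.95) and ZNF514 (1.02 and 0.60), in the authors' deposited table. These 2 were 6.90% of the 29 members lower in co-culture in the authors' deposited GFP comparison, against 26.3% over all genes. They were the only 2 members lower in co-culture in the authors' deposited ST8Sia6 comparison (100%, against 63.3% over all genes). Whether the effects differ between the 2 comparisons was not tested. No member passed in opposite directions, beside the 17 and 2 that passed in the same one. Over all genes 75 did, beside 1426 higher and 1012 lower in co-culture in both. With so few members passing in both, this does not set the members apart from all genes.

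**Figure D5:**
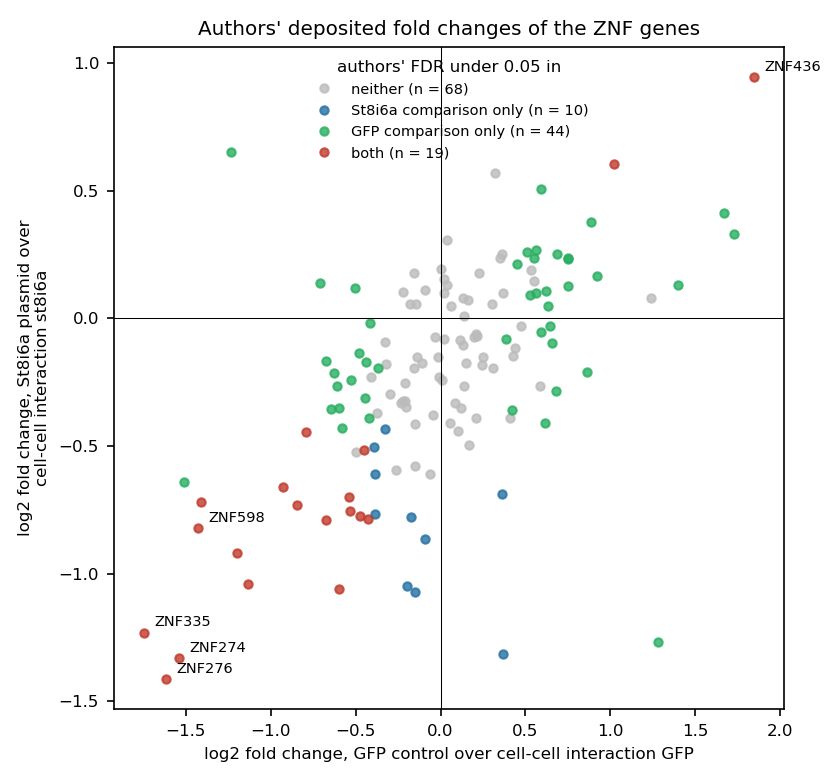
The authors' deposited log2 fold changes of the 141 ZNF genes, GFP control over interaction with GFP cells (horizontal axis) and ST8Sia6 plasmid over interaction with ST8Sia6 cells (vertical axis), coloured by which comparison passed the authors' FDR under 0.05. Negative values are higher in co-culture, with groups as the authors name them. The 17 genes higher in co-culture in both lie at the lower left, and ZNF436 and ZNF514 at the upper right.

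In the authors' deposited table of interaction with GFP cells against interaction with ST8Sia6 cells, 5 members passed, all negative, that is higher with ST8Sia6 cells, where 3.81% of all genes were negative and 0.938% positive. They were ZNF471 (-1.14), ZNF667 (-0.79), ZNF546 (-0.72), ZNF652 (-0.68) and ZNF260 (-0.66; the authors' deposited log2 fold changes), named here after their values were seen. ZNF667 had 3.95, 4.43, 5.34, 6.48 and 8.60 CPM in cell-cell interaction 1 to 5 and 8.99 and 9.66 CPM in wild type 1 and 2. The 2 interaction libraries on the authors' GFP side are the lowest of the 5, and wild type 1, on the authors' ST8Sia6 side, is above all of them. ST8Sia6 plasmid 4 and 5, also on the GFP side, had 3.93 and 4.79 CPM. Libraries on the GFP side had 13.8% to 19.6% mitochondrial counts. On the ST8Sia6 side, cell-cell interaction 3 and 4 had 24.3% and 25.4%, and cell-cell interaction 5 and wild type 1 had 3.32% and 2.29%. The part of the mitochondrial share in this difference was not tested. In the authors' deposited table of ST8Sia6 plasmid against GFP control, no member passed, where 0.42% of all genes were positive and 0.951% negative. The lowest FDR of a member there was 0.0678, in ZNF398 (log2 fold change -0.55 in the authors' deposited table).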

How the data were processed

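Total RNA of 18 libraries was sequenced. Per the submitters' processing notes, the tools were edgeR 3.40.2, STAR 2.7.10a, Subread 2.0.3 with featureCounts, and FastQC 0.11.5, and the genome build was susScr11. The authors deposited raw counts per gene, log2 CPM and log2 fold changes, and a p-value and FDR for each of their comparisons, per the file headers. The authors also deposited a signed fold change, treated as a score, and the other columns, such as exon positions and gene length, are as deposited by the authors. The authors' 2 tables held identical counts. The lowest summed count of a gene over the 18 libraries was 23.

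A comparison used only libraries carrying one of its 2 labels, filtered by filterByExpr, scaled by TMM and tested two-sided on all genes (edgeR 4.0.16, limma 3.58.1, R 4.3.3, robust quasi-likelihood fit). Alternatives were DESeq2 1.42.0, limma-voom, other scalings, filters and samples. The procedure was tested on simulated data. Standard errors were derived from the F statistic. Levels are TMM-scaled CPM over 18 libraries. The members, gene lists and comparisons were chosen with earlier results of these data known. Genes were named by rule: the listed roles, the 6 largest rises and falls among members that passed, averaged at least 1 CPM in the higher label and did not overlap (where fewer than 6 passed, the 3 lowest p-values on each side), the 6 highest levels per kilobase, and up to 6 pathway genes per comparison. Others were named after their values were seen. Protein and promoter sequences were not used here, so members were not classed by domain. The labels give no batch. Replicate numbers follow sample order and pair nothing.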

Additional observations from a re-analysis of the deposited data

Results flagged for a closer look

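Among 162 sets of 5 libraries tested for 1 library apart from the rest, over the named genes, 12 had one, and chance gives about 1 in 20. In 9 of them the library was cell-cell interaction 5, the 1 interaction library with few mitochondrial counts. It was above the other 4 interaction libraries in ZNF217 (118.853 CPM, against 63.8 to 74.7 CPM), ZNF318 (84.932 CPM, against 57.0 to 60.3 CPM), ZNF512 (12.7528 CPM, against 7.48 to 8.98 CPM), ZNF609 (117.518 CPM, against 84.4 to 90.9 CPM), ZNF638 (81.0765 CPM, against 46.0 to 54.8 CPM), ZNF664 (195.777 CPM, against 131 to 145 CPM) and ZNF507 (25.4685 CPM, against 17.1 to 19.3 CPM). It was below them in ZNF622 (17.3497 CPM, against 25.1 to 26.6 CPM) and in the pathway gene MTA1 (117.555 CPM, against 175 to 197 CPM).

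GFP control 5 was above the other 4 GFP control libraries in ZNF598 (66.2949 CPM, against 47.9 to 53.2 CPM) and ZNF618 (41.2779 CPM, against 22.5 to 25.0 CPM). GFP control 4 was below the others in ZNF462 (26.3736 CPM, against 32.1 to 34.2 CPM).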

How the results depend on the processing

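No paired analysis was possible because the labels give no replicate numbers shared between groups. For cell-cell interaction against GFP control, the 48 called members became 0 with only libraries under 10% mitochondrial and 9 when a log2 change of 1 or more in either direction was required too, and ranged from 38 to 62 with 1 library left out. The median became -0.0163 with library totals alone, 0.19 with genes averaging 5 CPM or more, and 0.0524 without GFP control 5 (range 0.0524 to 0.161 with 1 library left out). Leaving out all doubted libraries was an alternative chosen after seeing the data, and here it drops GFP control 5 alone. For ST8Sia6 plasmid against GFP control, the median became 0.0607 with at least 5 CPM, -0.0529 under 10% mitochondrial and -0.0559 without the doubted libraries. For cell-cell interaction against ST8Sia6 plasmid, 6 members passed with library totals alone, 4 each with at least 5 CPM, limma-voom and mitochondrial genes left out, 13 with all groups in 1 fit, 25 with DESeq2, 37 without the doubted libraries and 0 to 31 with 1 library left out, and the median became 0.0126 with library totals alone and 0.22 with at least 5 CPM. For GFP control against wild type, DESeq2 called 5 members, and all groups in 1 fit and the fit without the doubted libraries 1 each. The cause was not tested.

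In cell-cell interaction against GFP control, signs turned under 10% mitochondrial, which leaves 1 interaction library assumed to vary like the controls, for ZNF217 (0.21), ZNF318 (0.26), ZNF341 (-0.00788), ZNF367 (-0.66), ZNF445 (0.15), ZNF451 (-0.10), ZNF503 (0.33), ZNF609 (0.00603), ZNF687 (-0.23) and ZNF207 (-0.00631). ZNF207 also turned with library totals alone (-0.14), no filter (-0.00708) and all groups in 1 fit (-0.00707). With 1 library left out, the log2 fold change ranged from -0.0879 to 0.0499 for ZNF207, -0.215 to 0.0131 for ZNF346, -0.198 to 0.00245 for ZNF503 and -0.00449 to 0.218 for ZNF638. Of the values with 1 library left out, 593 kept direction and side of the threshold, 16 newly passed, 33 no longer passed and 7 turned sign.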
